A study of Gallus gallus with 6 samples.

Results

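The genes described here carry new proteins into the endoplasmic reticulum (ER) and pack them into the coated vesicles that shuttle between the ER and the Golgi. They were taken by the first letters of the gene symbol (SEC11, SEC13, SEC22, SEC23, SEC24, SEC31, SEC61, SEC62, SEC63, SSR, SPCS, TMED, COPA, COPB, COPE, COPG, COPZ, and SRP followed by a digit), whatever their values. The letters found 46 of the 13009 genes that have a symbol on the array, measured by 105 of 38439 probe sets, and where a gene had several, the brightest on average over the 6 arrays stands for it. For 38 of the 46 its mean was above a log2 level of 6, and for 8 it was at or under it. SSRP1, a subunit of the histone chaperone FACT, was taken by its letters alone and has no part in the ER, so at most 45 members belong to the pathway.

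The tissue was the chorioallantoic membrane (CAM), the vascular membrane under the shell of the chick egg, from Brown Leghorn chicken (Gallus gallus). After 10 days of culture the CAM was cut with a scalpel and its epithelium was scraped away, and a nylon grid was laid over the lesion. Granulation tissue (wound) and uninjured CAM of the same eggs (control) were collected 6 days later from 3 eggs, giving 3 wound and 3 control arrays. No group carried a transgene or a drug, and both were cultured in the same way. Each array holds RNA of a whole piece of tissue. Fewer cells of a type and less RNA per cell therefore cannot be told apart.

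Proteins bound for secretion or for a membrane begin with a signal sequence that the signal recognition particle (SRP) binds as it leaves the ribosome. The particle docks the ribosome on the SEC61 channel, the nascent chain passes into the ER, and the signal peptidase complex cuts the signal off. Folded cargo leaves in vesicles coated with COPII, while COPI vesicles bring escaped ER proteins back from the Golgi, with p24 proteins of the TMED family and SNAREs such as SEC22B acting in both steps. The pathway is known for its large load in cells that secrete matrix, such as fibroblasts, and in plasma cells.

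The values are log2 intensities per probe set, and every change given is the mean of the wounds minus the mean of the controls on that scale. A level cannot be compared between genes, since probe sets differ in brightness for the same amount of RNA. A member rose or fell where limma's p, adjusted by Benjamini-Hochberg over all 38439 probe sets, was under 0.05 at any fold. The number of arrays limits the precision, and the p-values set each change against the spread between these arrays. A second fit added the replicate number as a block, and its adjusted p is called blocked.

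Array medians lay between 3.01 and 3.05, but the bright end of the scale did not match between the groups. The level that the brightest 5% of probe sets exceed was 8.15 to 8.20 in the controls and 8.34 to 8.45 in the wounds. Over the 435 genes with a mean level above 10 the median change was 0.33, over the 1218 genes from 8 to 10 it was 0.30, and over the 5436 genes up to 4 it was 0.00. After quantile normalization of the arrays, which gives all of them 1 distribution, the medians in these classes were 0.00, 0.03 and 0.00. The 13 markers of myeloid cells had a median change of 2.10, with 9 past the test against 3.92% of all genes (1 of the 13 with the replicate block and 6 after quantile normalization), and their mean level was 5.73 to 6.14 in controls and 7.96 to 8.31 in wounds. The 9 endothelial markers had a median of -0.92, with EGFL7 past the test as lower (0.121 blocked), and a mean level of 7.78 to 7.87 in controls and 6.74, 6.81 and 7.36 in wounds 1, 2 and 3. The 11 fibroblast and smooth muscle markers had a median of -0.68 with 0 past the test, and their mean level was 9.28 to 9.45 in controls and 8.22, 7.86 and 9.39 in wounds 1, 2 and 3. Of 6 measured epithelial markers EPCAM and CLDN1 were past the test as higher, and the median was 0.66. EPCAM lost its call with the block (0.0541 blocked), and after quantile normalization neither passed (adjusted p = 0.0581 and 0.0816). The 5 measured B and plasma cell markers all had a mean over the 6 arrays under a level of 4, while the red cell globins HBA1 and HBAD lay near the top of the scale in both tissues. Most of the myeloid markers, and EGFL7, are in the study's own lists of genes changed on these same arrays. The marker lists were also chosen with earlier results of these data known. Their calls are therefore no independent evidence of a change. The part of these cell types in the members' changes was not tested.

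SPCS2 of the signal peptidase, SSR1 and SEC61G of the translocon and the cargo receptors TMED5 and TMED2 were higher in the wound, by 1.42 to 1.66-fold. These 5 of 46 members (10.9%) rose, where 3.92% of all genes did by the same call. Among the genes with a mean level above 6 the background was 8.93%, against 5 of 38 members (13.2%), so the members' count lay close to that of genes above this level. Of these 38 members 14 lay from level 6 to 8, against 2746 of the 4399 genes. The members were thus the brighter, and no share above level 6 given here is matched for brightness. With limma, 0 members fell, against 0.392% of all genes. At an unadjusted p under 0.05 there were 21 higher (45.7%), where 17.5% of all genes were, and 1 lower, TMED3, against 5.93%. Above level 6, 20 of 38 members (52.6%) were higher at that p, against 35.6% of genes. A fold over 2 was reached by 0 members, with or without the test, where 1.06% of all genes were past the test as higher with a fold over 2. Each of the 5 lost its call with the replicate block, at blocked adjusted p of 0.0502 to 0.0909, where 1.31% of all genes were called as higher, and after quantile normalization, where 0.492% were.

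Of the 46 members 35 lay above 0 and 11 below, with a median change of 0.25, where all genes had a median of 0.01. After quantile normalization 25 lay above 0 and 21 below, and the median was 0.01. In 22 members (47.8%) all 3 wounds lay above all 3 controls, against 20.8% of all genes and 37.8% of those above level 6, and in 1 member, TMED3, they lay below, against 7.81% of all genes. After quantile normalization these numbers were 8 (17.4%, against 14.5% of all genes) and 6 (13.0%, against 13.4%). The change was larger than the SD of both groups in 27 members and not in the other 19. The share of all genes for which this held was not counted, so the number is not set against a background. In 28 members (60.9%) the wound was higher in each of the 3 same-numbered pairs, where 32.8% of all genes were. Above level 6 this held for 25 of 38 members (65.8%), against 53.5% of genes. The wound was lower in each of the 3 pairs in 4 members (8.7%), against 17.2% of all genes.

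By brightness, the 5 members above level 10 had a median change of 0.51, the 19 members from 8 to 10 had 0.35, the 14 from 6 to 8 had 0.07 and the 6 from 4 to 6 had -0.03. The members from level 4 to 8 thus lay under the medians of all genes in their classes, which were 0.15 from 6 to 8 and 0.07 from 4 to 6, and the brighter ones lay above. After quantile normalization the members' medians in the same order were 0.09, 0.04, -0.09 and -0.09.

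**Figure D1:**
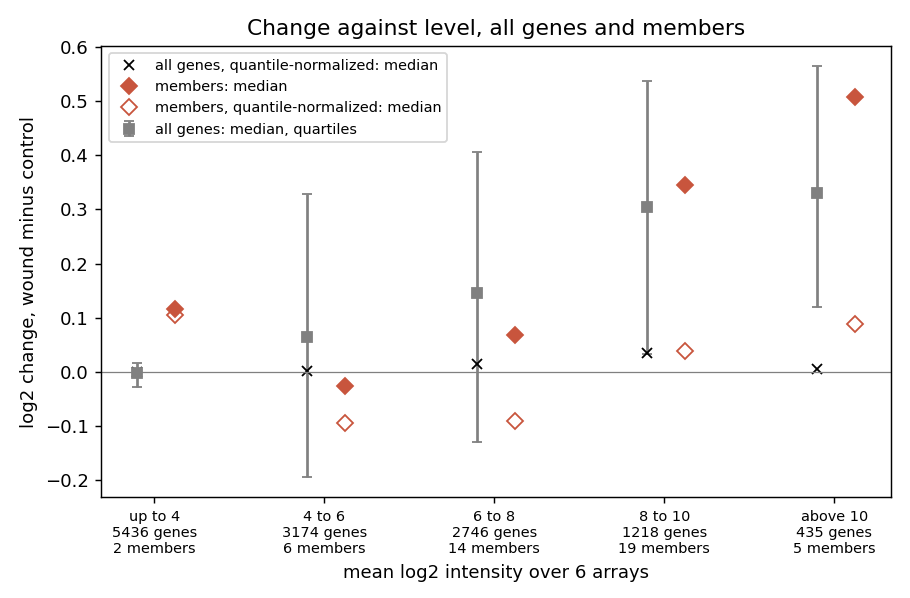
Median log2 change, wound minus control (vertical axis), of all genes and of the members in 5 classes of mean log2 intensity (horizontal axis), in the deposited values (filled) and after quantile normalization (crosses and open diamonds), with bars from the lower to the upper quartile of all genes. In the deposited values the median of all genes goes from 0.00 in the dimmest class to 0.33 in the brightest and that of the members reaches 0.51, while after quantile normalization the class medians of all genes lie between 0.00 and 0.03 and those of the 4 brighter classes of members between -0.09 and 0.09.

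**Figure D2:**
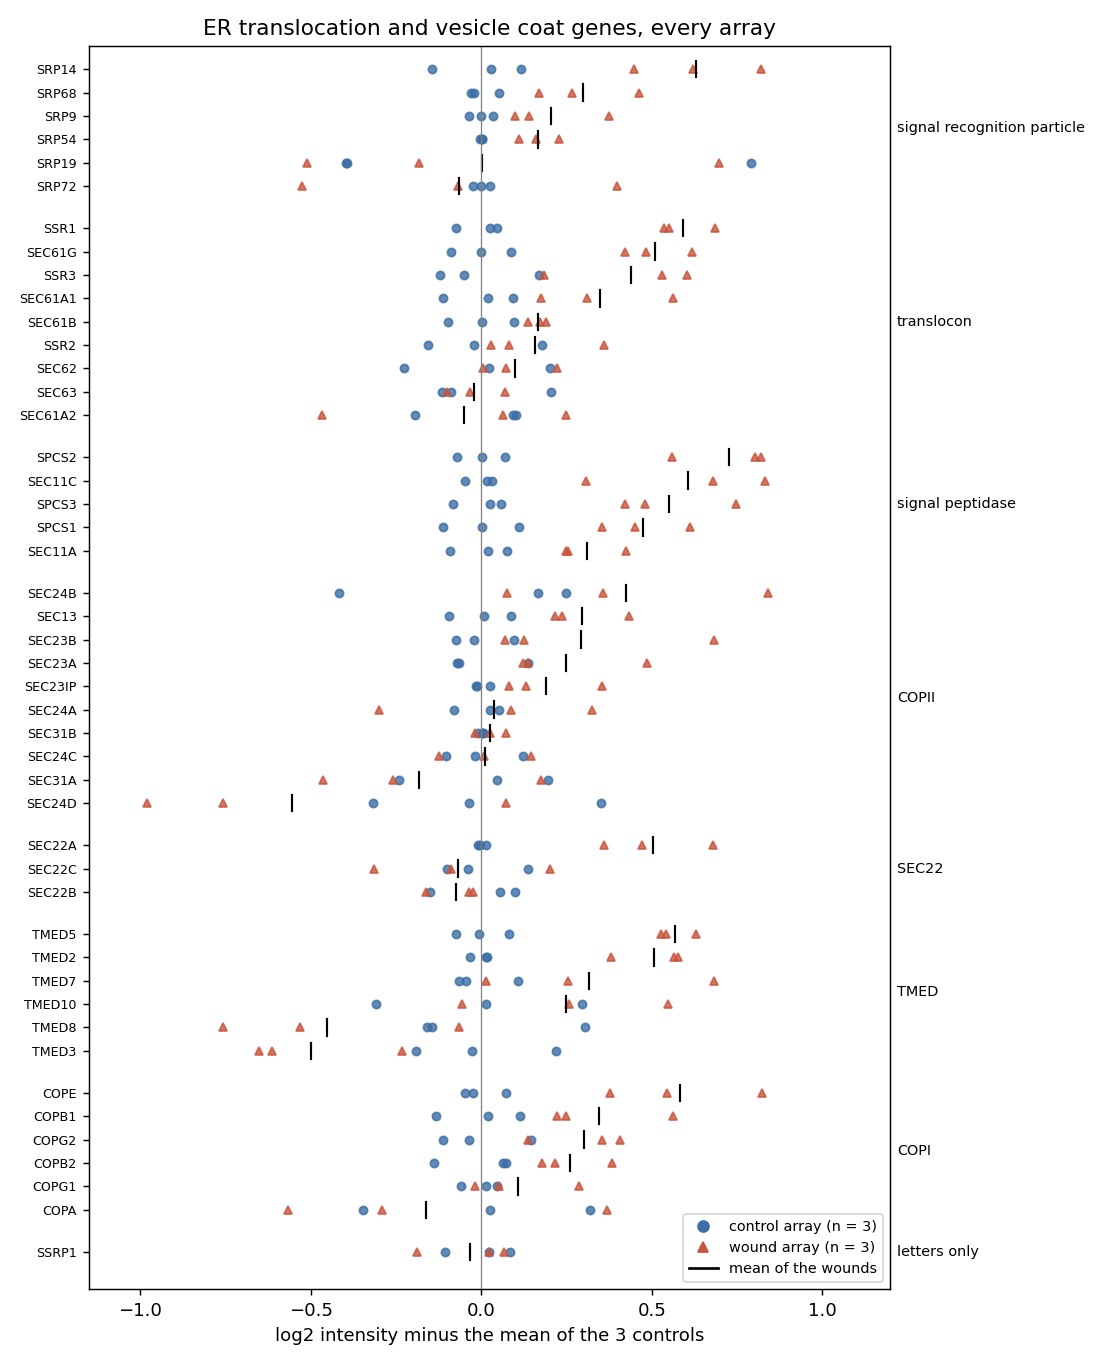
Log2 intensity of each member in every array after subtraction of its control mean (horizontal axis, deposited values), by role from the SRP at the top to COPI and SSRP1 at the bottom, with circles for the 3 controls, triangles for the 3 wounds and a black line at the wound mean. The wounds of all 5 signal peptidase genes lie to the right of their controls, and TMED3 is the only member whose 3 wounds lie to the left of its 3 controls.

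The SRP is an RNA with several proteins, of which 6 were measured, and none passed the test. Their median change was 0.19, or 0.09 after quantile normalization. SRP14, which with SRP9 slows elongation by the ribosome, had the highest change. It measured 7.83, 7.74 and 7.56 in controls 1 to 3 and 8.53, 8.16 and 8.33 in wounds 1 to 3, a change of 0.63 (standard error 0.12, adjusted p = 0.0881) that became 0.43 after quantile normalization. The wounds stood above the controls in every array. SRP9, its partner, lay low on the scale with a change of 0.20. The changes were 0.30 in SRP68, which binds the RNA near SRP72, and 0.17 in SRP54, the GTPase that holds the signal sequence, and in both the groups did not overlap. SRP68 had a mean level of 5.36, under 6. A second probe set of SRP54 above level 6 gave 0.52 (adjusted p = 0.0795). SRP72 had the lowest change, -0.07 (standard error 0.24), from 8.85, 8.83 and 8.88 in controls and 8.33, 8.78 and 9.25 in wounds. Its controls were almost equal, while wound 1 lay under them and wound 3 over them. SRP19, which helps the particle assemble and was picked for its replicate pattern, measured 4.44, 5.63 and 4.44 in controls and 4.66, 5.53 and 4.33 in wounds. Replicate 2 was the high array in both tissues, and the change was 0.00, or -0.06 after quantile normalization.

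The translocon members are the SEC61 channel, its helpers SEC62 and SEC63 and the SSR (TRAP) subunits that sit beside the channel, 9 genes in all. SSR1 and SEC61G rose, the other 7 did not pass, and the median was 0.17, or -0.08 after quantile normalization. SSR1, the alpha subunit of TRAP, measured 8.99, 9.09 and 9.11 in controls and 9.60, 9.62 and 9.75 in wounds. The groups did not overlap. Its change was 0.59 (standard error 0.06, 1.51-fold, adjusted p = 0.0228, 0.0502 blocked), or 0.29 after quantile normalization. The next brightest probe sets of SSR1 gave 0.25 (adjusted p = 0.803) and 0.11 (adjusted p = 0.906), so the call rests on the brightest of them. SEC61G, the small gamma subunit of the channel, measured 10.61, 10.79 and 10.70 in controls and 11.18, 11.32 and 11.12 in wounds. Every wound was again above every control. The change was 0.51 (standard error 0.07, 1.42-fold, adjusted p = 0.0463, 0.0595 blocked) and fell to 0.09 after quantile normalization.

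The other channel subunits gave 0.35 for SEC61A1, which forms the pore, and 0.17 for SEC61B. A second bright probe set of SEC61A1 gave 0.75 (adjusted p = 0.0818). The 3 bright probe sets of SEC61B ran from -0.06 to 0.61, and its change turned to -0.09 after quantile normalization. SEC61A2, the second pore gene, was the lowest of the translocon at -0.05 (standard error 0.21), with 5.67, 5.68 and 5.39 in controls and 5.64, 5.83 and 5.11 in wounds. Its groups overlapped, and replicate 3 was the lowest array in both. SSR3 changed by 0.44 and SSR2 by 0.16, the latter -0.15 after quantile normalization, and neither passed the test. SEC62 and SEC63, which serve chains that enter after translation, measured 0.10 and -0.02, and the first was -0.08 after quantile normalization.

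The signal peptidase complex, with catalytic subunits SEC11A or SEC11C and the accessory subunits SPCS1, SPCS2 and SPCS3, was the role with the highest median, 0.55, and 0.19 after quantile normalization. In 5 of its 5 genes all wounds lay above all controls, against 20.8% of all genes and 37.8% of those above level 6. All 5 stayed above 0 after quantile normalization, and SPCS2 rose. SPCS2 measured 7.72, 7.79 and 7.65 in controls and 8.52, 8.54 and 8.28 in wounds. The gap between the groups was wide beside the spread within them, and wound 3 was the nearest to the controls. Its change was 0.73 (standard error 0.09, 1.66-fold, adjusted p = 0.0333, 0.0524 blocked), the highest of all members, and 0.52 after quantile normalization. Dimmer probe sets of SPCS2 gave 0.40 (adjusted p = 0.470) and 0.32 (adjusted p = 0.523).

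SEC11C changed by 0.61 (adjusted p = 0.134) and SPCS3 by 0.55 (adjusted p = 0.0780). SPCS1 changed by 0.47 (adjusted p = 0.0890), and with the replicate block it was the only member past the test, at an adjusted p of 0.0417. A dim probe set of SPCS1, at a mean level of 2.87, gave -0.27 (adjusted p = 0.138), with all wounds below all controls. SEC11A had the lowest change of the complex, with 9.01, 9.13 and 9.18 in controls and 9.53, 9.36 and 9.36 in wounds. The groups were apart but close, and the change of 0.31 (standard error 0.07, adjusted p = 0.123) was 0.01 after quantile normalization.

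The COPII coat has an inner layer of SEC23 and SEC24, which picks the cargo, and an outer cage of SEC13 and SEC31. Of its 10 genes, counting the SEC23 partner SEC23IP, none passed the test, 8 lay above 0 and the median was 0.11, or -0.03 after quantile normalization. SEC24B had the highest change, 0.42 (standard error 0.28, adjusted p = 0.666), with 7.88, 7.79 and 7.21 in controls and 7.99, 8.47 and 7.70 in wounds. In this probe set replicate 3 was low in both tissues and wound 3 lay under controls 1 and 2. A second probe set of SEC24B above level 6 gave 0.45 (adjusted p = 0.382), and there replicate 3 was the highest array in both tissues. SEC13 (0.30) and SEC23IP (0.19) were the COPII genes whose wounds lay wholly above the controls. SEC13 was -0.09 after quantile normalization, and SEC23IP had a mean level of only 4.94. SEC23A changed by 0.25 and SEC23B by 0.29. SEC24A (0.04) became -0.12 after quantile normalization, SEC31A was at -0.18, and SEC31B (0.03) lay at the dim end of the scale.

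SEC24D, a cargo adaptor whose loss in people causes a brittle bone disorder, had the lowest change of all members. It measured 7.74, 8.02 and 8.41 in controls and 7.30, 7.07 and 8.13 in wounds. Wounds 1 and 2 were below every control, while wound 3 lay within the controls. Replicate 3 was the highest array in both tissues, and each wound was below its same-numbered control, by 0.44, 0.95 and 0.28. The change was -0.56 (standard error 0.34, adjusted p = 0.629), and the 3 probe sets of SEC24D above level 6 gave -0.85 to -0.53. The fibroblast and smooth muscle, endothelial and myeloid markers each had their highest wound mean in wound 3 too. Control 3 was likewise the highest control for the fibroblast and smooth muscle (9.45) and endothelial (7.87) markers, but for the myeloid markers control 1 was (6.14). The epithelial markers had their lowest wound mean in wound 3, with means of 11.66, 11.08 and 10.77 in wounds 1, 2 and 3. That low mean rested on CA2, which measured 12.54, 12.74 and 9.20 in wounds and was also low in control 3 (9.47). EPCAM, KRT14 and CLDN1 were lowest in wound 3 by far less, CDH1 was highest there (11.24) and KRT5 was lowest in wound 2. Wound 3 also had the brightest upper end of the wound arrays. The level that its brightest 5% of probe sets exceed was 8.45, against 8.34 in wound 1 and 8.39 in wound 2. The part of the markers and of array brightness in the SEC24D values was not tested. SEC24C, which forms a subfamily with SEC24D, measured 8.17, 8.09 and 8.31 in controls and 8.20, 8.06 and 8.33 in wounds. Here wound and control of each number were nearly equal, with a change of 0.01, or -0.20 after quantile normalization.

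**Figure D3:**
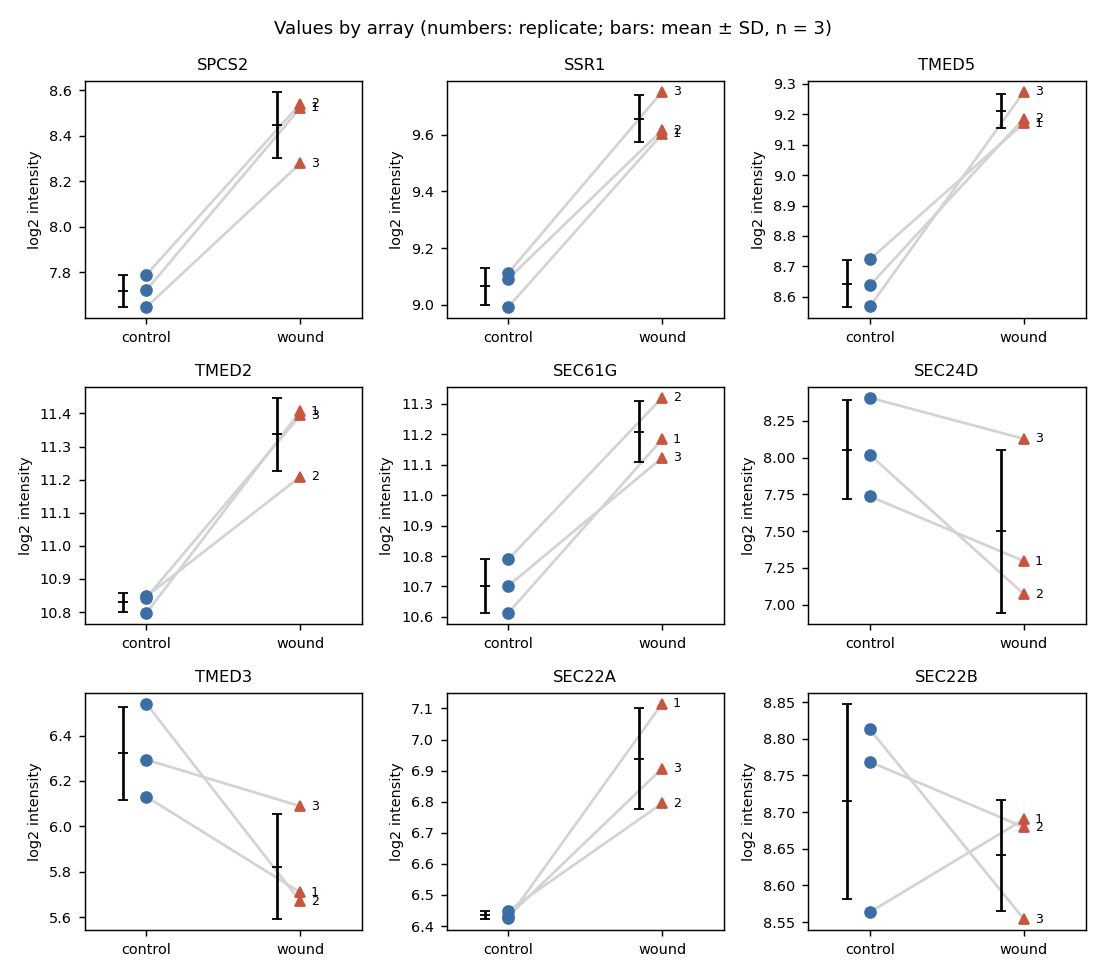
Log2 intensity (vertical axes, each with its own range that does not start at 0) of 9 members in the control and wound arrays, with grey lines joining arrays of the same replicate number and bars for the mean ± SD (n = 3 each). The wounds of SPCS2, SSR1, TMED5, TMED2, SEC61G and SEC22A lie above their controls, those of TMED3 lie below, and in SEC24D wound 3, at 8.13, lies among the controls.

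The SEC22 proteins are relatives in the ER and the early Golgi, of which SEC22B is the SNARE of ER to Golgi traffic. SEC22A measured 6.42, 6.45 and 6.43 in controls and 7.12, 6.79 and 6.91 in wounds. Its controls were nearly equal and all wounds were above them, a change of 0.50 (standard error 0.09, adjusted p = 0.0710) that was 0.39 after quantile normalization. A second probe set of SEC22A above level 6 gave 0.16 (adjusted p = 0.736), and its groups overlapped. SEC22B measured 8.56, 8.77 and 8.81 in controls and 8.69, 8.68 and 8.55 in wounds. Its groups overlapped, and the change was -0.07 (standard error 0.08, adjusted p = 0.856), or -0.35 after quantile normalization. SEC22C was at -0.07.

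TMED (p24) proteins such as TMED2 and TMED10 travel in both coats as cargo receptors, and 6 genes with the TMED letters were measured. TMED5 and TMED2 rose, and the median was 0.28, or -0.02 after quantile normalization. TMED5 measured 8.72, 8.64 and 8.57 in controls and 9.17, 9.19 and 9.27 in wounds. Replicate 3 was the lowest control and the highest wound, and the groups were far apart. The change was 0.57 (standard error 0.05, 1.48-fold, adjusted p = 0.0219, 0.0802 blocked), or 0.28 after quantile normalization. TMED2 measured 10.80, 10.85 and 10.84 in controls and 11.41, 11.21 and 11.39 in wounds, so that each wound exceeded each control. Its change was 0.51 (standard error 0.06, 1.42-fold, adjusted p = 0.0345, 0.0909 blocked), a second bright probe set gave 0.46 (adjusted p = 0.0463), and after quantile normalization the change was 0.09. TMED7 and TMED10, the partner of TMED2 in p24 complexes, measured 0.32 and 0.25, and the latter was -0.05 after quantile normalization. A second bright probe set of TMED7 gave 0.73 (adjusted p = 0.0783).

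TMED3 and TMED8 had negative changes. TMED3 measured 6.13, 6.54 and 6.29 in controls and 5.71, 5.67 and 6.09 in wounds. All wounds were under all controls, with wound 3 just under the lowest of them, and the change was -0.50 (standard error 0.16, adjusted p = 0.260), or -0.59 after quantile normalization. TMED8, whose mean level of 4.73 was under 6, was at -0.45 (adjusted p = 0.522), and its groups overlapped. It was counted here by its letters, and whether it acts as a p24 cargo receptor was not examined.

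The COPI coat is a complex of subunits that is recruited whole, and 6 of its measured genes carry the letters of the rule. Another subunit, ARCN1, lies outside the letters and changed by -0.03, or -0.36 after quantile normalization. None of the 6 passed the test, 5 lay above 0, and their median was 0.28, or 0.00 after quantile normalization. COPE, the epsilon subunit, had the highest change, from 9.01, 9.11 and 8.99 in controls to 9.86, 9.58 and 9.41 in wounds. No wound fell among the controls, and the change was 0.58 (standard error 0.12, adjusted p = 0.108), or 0.27 after quantile normalization. COPB1, COPB2 and COPG2 changed by 0.35, 0.26 and 0.30, of which COPB2 turned to -0.05 after quantile normalization, and COPG1 by 0.11, which turned to -0.19. COPA, the alpha subunit, was lowest at -0.16 (standard error 0.31), from 7.26, 7.63 and 7.93 in controls and 7.04, 7.32 and 7.98 in wounds. In both tissues replicate 1 was lowest and replicate 3 highest, and in this probe set the spread among replicates was larger than the change. A second probe set of COPA above level 6 gave -0.33 (adjusted p = 0.454, 0.0769 blocked), larger than its SDs of 0.18 in controls and 0.22 in wounds. SSRP1, the member that is no ER gene, was at -0.03.

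**Figure D4:**
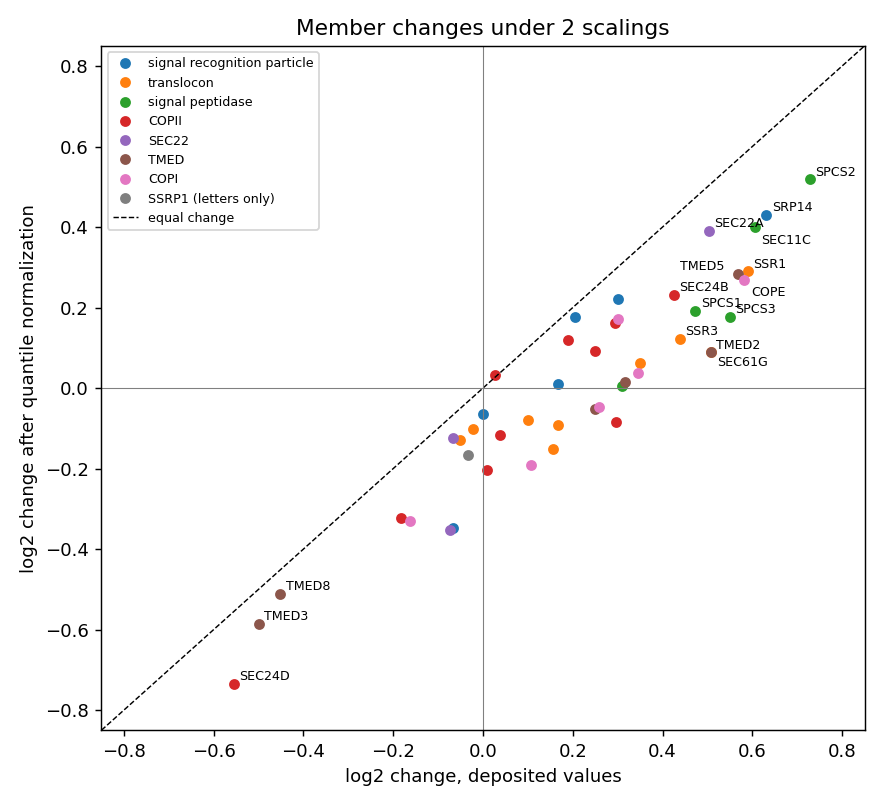
Log2 change, wound minus control, of each of the 46 members in the deposited values (horizontal axis) and after quantile normalization (vertical axis), coloured by role, with a dashed line at equal change. Nearly all points lie under the line, SPCS2 at 0.73 and 0.52 stays highest and SEC24D at -0.56 and -0.74 stays lowest under both scalings, and 10 members, such as SEC13 and COPG1, pass from above to below 0.

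Paralogues were compared by the difference of their log2 values within each array, for 11 pairs. An exact two-sided permutation test of 3 against 3 arrays cannot go below p = 0.1, and after Benjamini-Hochberg adjustment over the 11 pairs no p was below 0.44. SEC22A changed by 0.58 more than SEC22B (standard error 0.12, exact p = 0.1, 0.74 more after quantile normalization), and SEC24C by 0.57 more than SEC24D (standard error 0.29, exact p = 0.2). The SEC22A value is that of its brightest probe set, the second bright one changing by only 0.16. SEC11C changed by 0.30 more than SEC11A, a difference of -0.30 for SEC11A minus SEC11C (standard error 0.16, exact p = 0.1), and SEC61A1 by 0.40 more than SEC61A2 (standard error 0.23, exact p = 0.2). In SEC22A and SEC22B, and in SEC11A and SEC11C, the within-array differences of wounds and controls did not overlap. The other 7 pairs differed by -0.39 (SEC24A minus SEC24B, standard error 0.40) to 0.26 (TMED2 minus TMED10, standard error 0.23). With these errors the pairs cannot be said to change alike.

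In 18 member genes 2 or more probe sets had a mean level above 6. In 13 of them all such probe sets changed in 1 direction, and in 5 (COPG1, SEC23A, SEC24A, SEC24C and SEC61B) they had both signs. For the latter the sign of the change depends on the probe set chosen.

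Of 45 measured genes of the same pathway outside the letters of the rule, from a list of 59, 3 rose and 0 fell. The background was 3.92% and 0.392% of all genes, and 8.93% and 0.409% of those with a mean level above 6. The median of the list was 0.11, or -0.02 after quantile normalization. The 3 that rose were SAR1B, a GTPase that starts the COPII coat, ARF1, a GTPase that starts COPI, and MCFD2, a partner of the cargo receptor LMAN1. Other GTPases of these families did not pass. SAR1A changed by -0.06 (adjusted p = 0.861), or -0.32 after quantile normalization, ARF4 by 0.43 (adjusted p = 0.103) and ARF5 by 0.21 (adjusted p = 0.907). SAR1B measured 8.63, 8.66 and 8.77 in controls and 9.36, 9.32 and 9.15 in wounds, a change of 0.59 (standard error 0.07, adjusted p = 0.0340, 0.112 blocked). ARF1, whose probe set is also the brightest of the list, measured 11.06, 11.003 and 11.26 in controls and 11.84, 11.89 and 11.71 in wounds, a change of 0.71 (standard error 0.09, adjusted p = 0.0365, 0.118 blocked). MCFD2 changed by 0.68 (standard error 0.08, adjusted p = 0.0319, 0.0737 blocked). In SAR1B, ARF1 and MCFD2 every wound lay above every control, and after quantile normalization or with the block 0 of the list passed. RPN1, a subunit of the oligosaccharyl transferase that adds sugars beside the translocon, has the next brightest probe set and measured 0.07 (adjusted p = 0.972), or -0.33 after quantile normalization.

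Of 20 measured ER stress and folding genes, from a list of 26, 1 rose and 0 fell. The background was again 3.92% and 0.392% of all genes, and 8.93% and 0.409% of those with a mean level above 6. The median of the list was 0.32, or 0.09 after quantile normalization. CANX, the lectin chaperone calnexin, measured 7.92, 8.09 and 8.09 in controls and 8.41, 8.51 and 8.58 in wounds. Its wounds were all above its controls, with a change of 0.47 (standard error 0.07, adjusted p = 0.0499, 0.0483 blocked). After quantile normalization its change was 0.25 (adjusted p = 0.130), and 0 of the list passed. HSPA5, the ER chaperone BiP, measured 10.19, 10.07 and 9.98 in controls and 11.07, 10.91 and 10.67 in wounds, a change of 0.80 that did not pass (standard error 0.12, adjusted p = 0.0533). ATF4, a transcription factor of the stress response, was at -0.02 (adjusted p = 0.998), or -0.43 after quantile normalization.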

How the data were processed

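RNA of 3 wound and 3 control CAM was hybridised to Affymetrix chicken GeneChips, 1 array a sample. The authors deposited log2 intensities per probe set. The submitters' processing notes and the study name RMA, no source here giving its version. GCOS scaling, which the methods name as well, yields signals that are not logged, unlike the deposited values. Which between-array step lies behind the deposited values was not settled. Quantile normalization here was applied to the probe set values as deposited, on top of any such step. Gene symbols came from the platform annotation. The file holds 38535 probe sets, of which 96 were array controls and not tested and 177 carry several symbols and got no name. All 46 members were found by gene ID in the RefSeq gene table. There were 0 unused columns of per-sample values.

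Wounds and controls were compared with limma 3.58.1 (lmFit and eBayes) in R 4.3.3, p being adjusted by Benjamini-Hochberg over the 38439 tested probe sets, at a threshold of 0.05. The SAM rank test of the methods was not used, since 6 arrays allow few relabellings. Single pairs were tested in Python 3.11.15 with scipy 1.17.1. Only the limma fit without the block was tested on simulated arrays, with independent noise in each probe set. The other steps were not. The members and lists were chosen with earlier results of these data known. All members are named. Values in every array are given for members past the test, the highest and lowest change of each role, and paralogues that differ by over 0.5. Of the pathway and ER stress lists, genes past the test, the 2 with the brightest probe sets and the COPI subunit ARCN1 are named. So are SAR1A, ARF4 and ARF5, as relatives of genes past the test. Marker lists are summarised. The text says so where another gene was picked with its values in view.

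Each wound had a control from the same egg, though whether the replicate numbers mark the eggs is not stated in these sources. Once the group means were subtracted, same-numbered arrays correlated at 0.58, 0.63 and 0.45 (Pearson's r across probe sets, which are not independent). On that basis samples were paired by number in the replicate block and in the counts of same-numbered pairs. The main fit had no block, so its calls, standard errors and adjusted p are unpaired. Alternatives were the replicate block, quantile normalization, a filter keeping the brighter 19219 probe sets, limma with trend and robust, the mean of a gene's probe sets, a fold over 2 and leaving out each array. Quantile normalization with the block was added after seeing the data. Promoter and protein sequences were not analysed here.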

Additional observations from a re-analysis of the deposited data

How the results depend on the processing

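The number of members past the test as higher, 5 in the deposited values, was 1 with the replicate block (SPCS1), 0 after quantile normalization, 0 with both, 0 with limma's trend and robust options, 0 with a fold over 2, and 8 with the filter on dim probe sets, which tests fewer and adds SEC22A, SPCS3 and SRP14. With 1 array left out it ran from 0 to 5. It was 0 without control 1, 2 or 3 or wound 1, 1 without wound 2 (TMED2), and 5 without wound 3, of which 3 (SPCS2, SSR1 and TMED5) were among the original 5. As the mean over probe sets 4 were called, of which SEC61G, TMED2 and TMED5 were among the original 5 and SRP54 was new, while SSR1 and SPCS2 lost their calls. The number past the test as lower was 0 throughout. Members with all wounds above all controls numbered 22, 8 after quantile normalization and 22 to 26 with 1 array left out, and those with all below numbered 1, 6 and 1 to 5, with 2 without control 1 and 5 without wound 3. Leaving out an array can only keep or raise these 2 counts, so their ranges do not test how stable they are. The median change of 0.25 was 0.013 after quantile normalization, 0.16 for the mean of probe sets and 0.22 to 0.26 with 1 array left out. With quantile normalization, with or without the block, 10 changes turned sign: COPB2 -0.048, COPG1 -0.19, SEC13 -0.085, SEC24A -0.12, SEC24C -0.20, SEC61B -0.092, SEC62 -0.079, SRP19 -0.063, SSR2 -0.15 and TMED10 -0.052. With the mean of probe sets SEC22C was 0.087, SEC24A -0.019, SEC24C -0.068, SEC31B -0.0048 and SEC61A2 0.16. Leaving out 1 array turned 10 small changes, with ranges of -0.43 to 0.039 for COPA, -0.20 to 0.056 for SEC22C, -0.11 to 0.21 for SEC24A, -0.059 to 0.077 for SEC24C, -0.20 to 0.16 for SEC61A2, -0.013 to 0.20 for SEC62, -0.080 to 0.081 for SEC63, -0.35 to 0.40 for SRP19, -0.30 to 0.16 for SRP72 and -0.086 to 0.045 for SSRP1. Why the bright end of the arrays differs between groups was not tested, and quantile normalization would remove a true shift as well as a technical one. Dim members, such as SEC31B and SRP9, have little signal over background.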

Other observations

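Of 17 pathway and ER stress genes with negative changes, 11 had wound 3 as their highest wound, as did 8 of the 11 members with negative changes, SEC24D among them, against 29 of all 65 measured genes of these lists and 22 of all 46 members. The 4 with the largest negative changes, chosen after their values were seen, are given here, and none of them passed the test. KDELR3, a receptor that returns ER proteins, measured 7.67, 8.07 and 8.28 in controls and 7.18, 6.94 and 7.79 in wounds, a change of -0.70 (adjusted p = 0.370). TRAM2, a translocon-associated protein tied to collagen synthesis, measured 7.96, 7.90 and 8.39 in controls and 7.31, 7.17 and 8.17 in wounds, a change of -0.53 (adjusted p = 0.617). In both, wound 3 lay within the controls but below control 3, which was the highest control. MIA3, which helps COPII carriers take up collagen, changed by -0.40 (adjusted p = 0.441), and CREB3L2, which in mouse cartilage drives SEC23A, by -0.40 (adjusted p = 0.575). The mean levels of the fibroblast and smooth muscle, endothelial and myeloid markers were also highest among the wounds in wound 3. So were those of the pathway and ER stress lists, at 7.46 and 8.24. The pattern was not limited to wounds. Control 3 was the highest control for the fibroblast and smooth muscle, endothelial, pathway and ER stress lists, at 9.45, 7.87, 7.29 and 7.92. For the myeloid markers control 1 was the highest control, at 6.14. The epithelial markers had means of 11.66, 11.08 and 10.77 in wounds 1, 2 and 3. As given above, the low mean in wound 3 rested on CA2, which was low in control 3 as well, and CDH1 was highest in wound 3. The upper quartile of the array was 5.23 in wound 3, against 5.06 in wound 1 and 5.14 in wound 2. How often wound 3 was the highest wound over all genes is not given here. The part of the markers and of array brightness in these values was not tested.

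CA2, a carbonic anhydrase of the CAM epithelium also chosen after its values were seen, measured 12.40, 12.33 and 9.47 in controls and 12.54, 12.74 and 9.20 in wounds. Replicate 3 was thus the low array in both tissues, as it was for the brightest probe sets of SEC61A2 and SEC24B. In the second bright probe set of SEC24B replicate 3 was the highest array.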
